A study of Oryza sativa with 6 samples.

Results

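D14 and D3 are the receptor and the F-box protein of strigolactone signalling in rice, and this account follows their transcripts in leaves of wild type (WT) plants and of plants overexpressing (OX) OsCGA1, a GATA-type transcription factor. The members were all probe sets of the array assigned to a single gene with the symbol or synonym D14 or D3. That gave 2 of 17905 genes that had an unshared probe set, D14 (LOC4331983, also listed as D88 and HTD2) and D3 (LOC9272469), each with 1 of the 57194 non-control probe sets. Leaves came from 4-week-old plants of Oryza sativa, with 3 biological replicates of each genotype, each on its own Affymetrix Rice Genome Array. Both genotypes grew in chambers under days of 16 h at 28 °C and nights of 8 h at 23 °C. The promoter of the transgene, the number of independent lines and the cultivar are not given in the sources used here.

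Strigolactones are carotenoid-derived hormones that leave the plant to attract symbiotic fungi and act inside it to restrain the outgrowth of tillers, the side shoots of grasses. D14 is an alpha/beta hydrolase that binds the hormone, and D3 is the F-box subunit that then joins D14 to an SCF ubiquitin ligase. The complex marks D53-type repressor proteins for degradation, and rice mutants lacking D14 or D3 are short and bear many tillers.

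Each value is a MAS5 signal, a linear brightness of a probe set scaled per array by the authors, so a level can be compared between arrays but not between probe sets. Changes are OX minus WT on the log2(signal + 3) scale, ± standard error, and an adjusted p under 0.05 from limma over all 28456 tested probe sets counted as passed. Median signals per array were 16.8, 18.2 and 18.7 in WT replicates 1, 2 and 3, and 14.7, 16.2 and 15.8 in OX replicates 1, 2 and 3. Every OX median thus lay below every WT median. Precision is limited by having only 6 arrays. As a sign of RNA integrity, ratios of 3' to 5' signal were taken from 5 rice control pairs: in 2 all OX arrays exceeded all WT arrays, and the other 3 overlapped. It was highest on OX replicate 1 in all 3 actin pairs, reaching 7.29 against 2.38 to 3.11 in WT in the widest of them. OsCGA1 itself was not analysed here, so its own signal does not check the OX label.

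D14, the receptor, had somewhat lower signals in OX leaves, and the difference did not pass the test across all probe sets. The D14 signals were 2382, 2235 and 1970 in WT replicates 1, 2 and 3. In OX replicates 1, 2 and 3 they were 1683, 1928 and 1703. All 3 OX values lay below all 3 WT values, but the highest OX array was only 42.5 units under the lowest WT array. The group means were 2196 ± 209 in WT and 1771 ± 136 in OX (SD, n = 3 each). The log2 change was -0.31 ± 0.11, a ratio of 0.808 with a 95% interval of 0.681 to 0.959 before any correction. After Benjamini-Hochberg adjustment over all probe sets, limma gave an adjusted p of 0.0883. An exact two-sided permutation test of D14 alone gave p = 0.1, the smallest that 3 arrays against 3 allow. Signals without overlap and lower in OX were seen in 22% of all tested probe sets, a common pattern on these arrays. In whole leaves, fewer cells of a type and less RNA per cell cannot be told apart.

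The D14 difference passed with limma array weights, which count less variable arrays more (-0.33, limma adjusted p = 0.0295). It also passed without OX replicate 2, the OX array with the highest D14 signal (-0.37, limma adjusted p = 0.0488). In these fits 27.9% and 19.4% of all tested probe sets passed, against 16.1% in the fit as reported. Without OX replicate 1, the array with the highest actin 3'/5' ratios, the change was -0.27 with a limma adjusted p of 0.186. The part of RNA quality in the D14 difference was not tested beyond that.

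**Figure D1:**
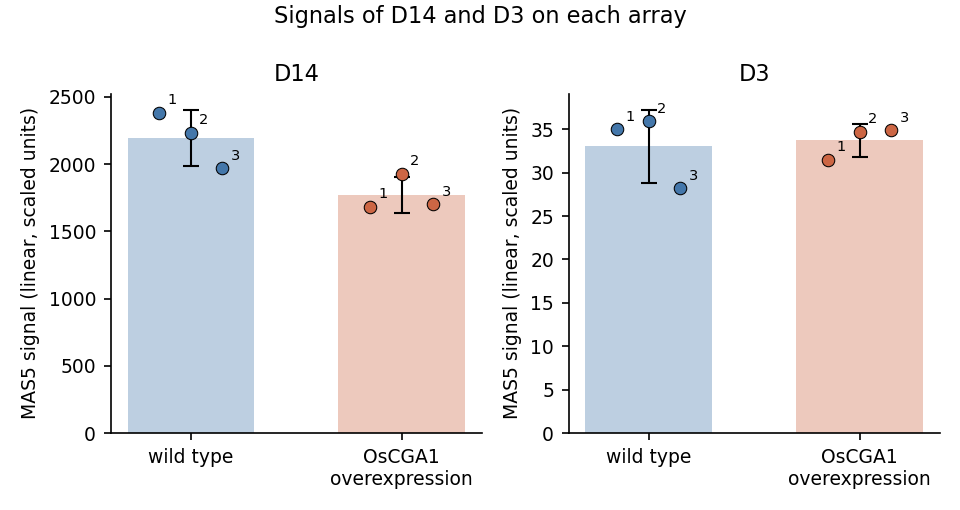
Linear MAS5 signal (scaled units) of the D14 and D3 probe sets on each of 6 arrays. Bars are group means from 0, whiskers are SD (n = 3), and numbers beside the points are replicates. D14 runs from 1683 to 1928 in OX, below the 1970 to 2382 of WT, while D3 lies between 28.2 and 35.9 with both groups mixed.

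D3, the F-box partner, showed no detectable difference. Its signals were 35, 35.9 and 28.2 in WT replicates 1, 2 and 3, and 31.5, 34.7 and 34.9 in OX replicates 1, 2 and 3. The groups overlapped throughout, with the lowest of the 6 values in WT and the lowest OX value below 2 of the 3 WT values. The means were 33 ± 4.21 in WT and 33.7 ± 1.91 in OX (SD, n = 3 each). The log2 change was 0.03 ± 0.20 (limma adjusted p = 0.93), and its 95% interval corresponds to OX over WT ratios from 0.739 to 1.41. Changes of D3 inside that range, including one of the size measured for D14, could not be seen with these arrays. The D3 signals were dim, and without detection calls they cannot be told from background. The sign of the D3 change turned without WT replicate 3, to -0.068.

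The D14 change minus the D3 change was -0.34 on the log2 scale (exact permutation p = 0.1, two-sided, the smallest that this test can give with 3 arrays against 3). The difference kept its sign in all 11 alternatives run, from -0.45 to -0.29. Centring the arrays and averaging over a gene's probe sets could not change it.

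**Figure D2:**
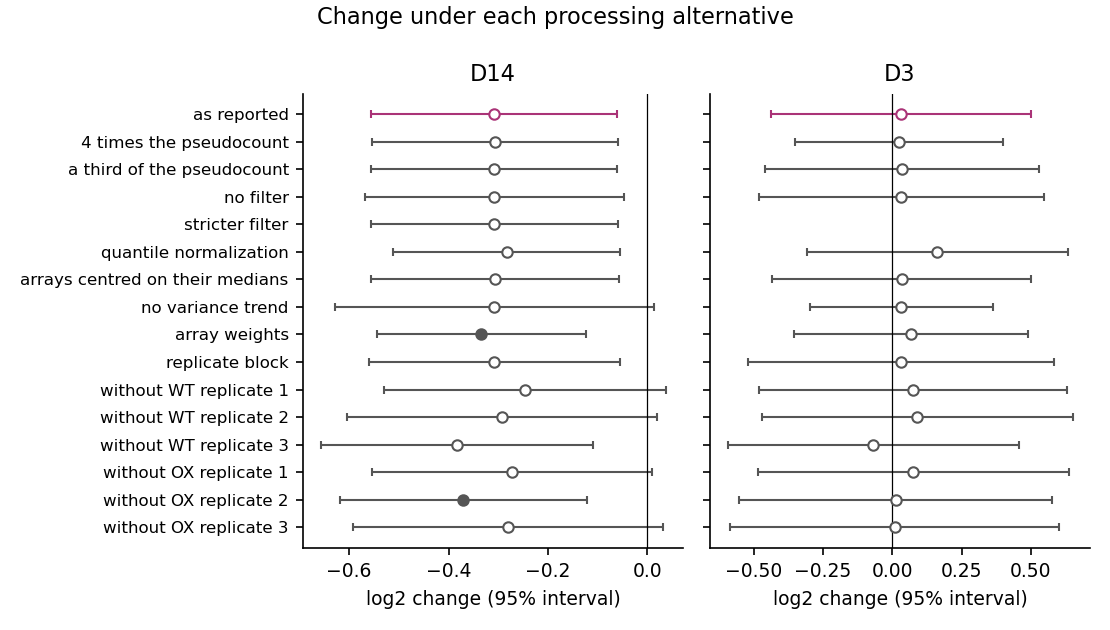
Log2 change (OX minus WT) of D14 (left) and D3 (right) with 95% intervals, as reported (purple) and under each alternative processing. Filled points passed over all probe sets. D14 lies between -0.38 and -0.25 in every setting drawn and passed in 2, and D3 lies between -0.07 and 0.16, with no value under the stricter filter.

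Both changes were set against probe sets of like brightness, since changes varied with signal. The D14 probe set fell in the brightest decile of the tested probe sets, whose median change was -0.10 with quartiles of -0.33 and 0.19. In that decile 31.5% of probe sets had OX signals entirely below WT. Relative to the median of its decile, D14 stood at -0.21. The D3 probe set fell in decile 3, counted from the dim end, with a median change of -0.17, and stood at 0.21 relative to it. The median over all tested probe sets was -0.09. Under quantile normalization, which gives all arrays the same distribution of signals, D14 was at -0.28 (limma adjusted p = 0.0902) and D3 at 0.16 (adjusted p = 0.623).

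**Figure D3:**
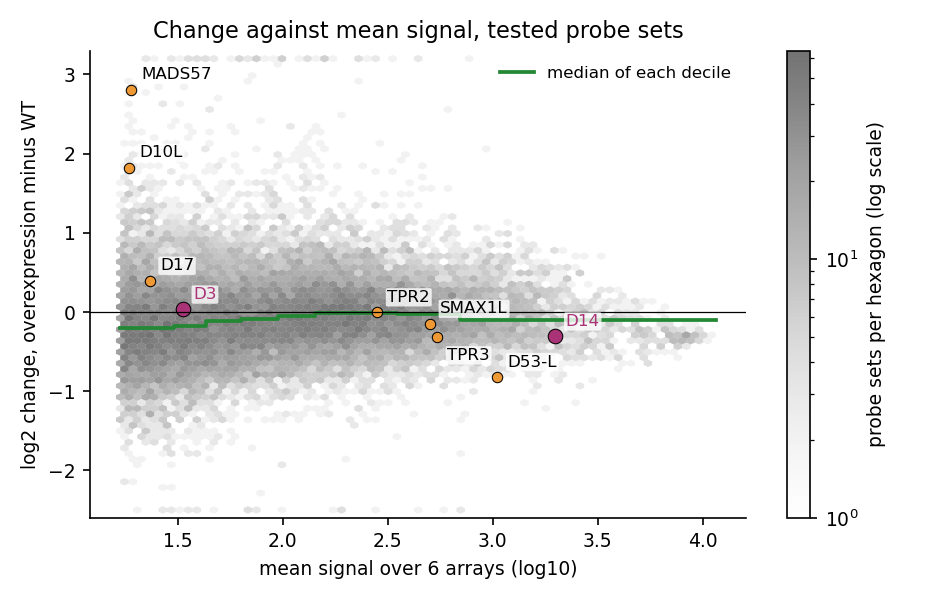
Log2 change (OX minus WT) against the mean signal over 6 arrays (log10 axis) for 28456 tested probe sets, as a density of hexagons with changes beyond the axis drawn at its edge. The green steps are the medians of deciles by signal, D14 and D3 are purple and other strigolactone-related genes orange. D14 sits at -0.31 below the median of its decile (-0.10), and D3 at 0.03 above its own (-0.17).

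Among the other genes of the pathway, a D53-type repressor gene fell and MADS57 rose. D17 and D10L, the only genes of hormone synthesis tested, did not pass. The list held 30 genes of strigolactone synthesis, perception, repression and response and of the related karrikin branch. Of these, 13 matched the annotation, 10 had a probe set of their own and 9, D14 and D3 included, passed the filter on low signals. Of the 9 tested genes 1 rose, 1 fell and 7 did not pass, where 16.1% of all tested probe sets passed in either direction (8.65% higher and 7.44% lower). The median of the 9 changes was -0.003, against -0.09 over all tested probe sets. MADS57 and D10L had mean WT signals under the filter and entered through their OX signals. The list was also chosen with earlier results of these data known, so these counts are a description.

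The enzymes of synthesis measured were the carotenoid cleavage dioxygenase gene D17 (CCD7) and D10L (CCD8A), a relative of D10. D17 had signals of 18.9, 23.6 and 16.4 in WT and 22.3, 27 and 30.9 in OX, which overlapped. Its change was 0.40 ± 0.26 (limma adjusted p = 0.331). D10L read 1, 13.7 and 6.7 in WT and 38.3, 36.8 and 14.4 in OX. The D10L groups came close, at 13.7 on WT replicate 2 and 14.4 on OX replicate 3, without overlapping, which 16.7% of all tested probe sets did with OX higher, and the change of 1.82 ± 0.60 did not pass (limma adjusted p = 0.0765). The size of the D10L change depends on the pseudocount, since its WT signals lay near it (1.13 with a pseudocount of 12 and 2.22 with 1). D10 itself matched the annotation without a probe set of its own, and D27 was not matched.

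D53-L (LOC4351252), a close relative of the repressor gene D53, whose protein is the substrate of the D14 and D3 complex, was the only 1 of the 9 to fall. The signals of its brighter probe set were 1194, 1250 and 1577 in WT replicates 1, 2 and 3, and 755.3, 820.3 and 686.5 in OX replicates 1, 2 and 3. Every OX array lay well below every WT array. The change was -0.82 ± 0.13 with a limma adjusted p of 0.0064, and it passed in all 15 alternatives run, from -0.91 to -0.70. Its dimmer probe set, at 11.8 to 37.6 in WT and 8.8 to 14.7 in OX, was at -0.85 ± 0.43 and did not pass (limma adjusted p = 0.212). D53 itself was not matched in the annotation, so no value is given for it. D53 and this relative are known to be similar in sequence, and whether these probe sets also detect D53 transcripts was not tested. SMAX1L, of the related repressor family of the karrikin branch, read 518.2 to 528.6 in WT and 407.8 to 554.4 in OX. Its change was -0.15 ± 0.13 and did not pass (limma adjusted p = 0.449).

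The TOPLESS-related co-repressor genes, whose products are recruited by D53-type repressors, did not pass. TPR3 read 534, 655.4 and 613.4 in WT and 457.1, 523.9 and 464.5 in OX, with the OX arrays all lower by a small margin. The TPR3 change was -0.31 ± 0.11 (limma adjusted p = 0.1), close to that of D14. TPR2 was at -0.003 ± 0.12 (limma adjusted p = 0.99), with overlapping signals of 252.5 to 296.3 in WT and 263.5 to 309.9 in OX. SPL14 (IPA1), a factor downstream of D53 in tiller control, read 2.4 to 12.2 in WT and 0.3 to 12.5 in OX and was below the filter.

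MADS57 (LOC4330621), a MADS-box factor reported in rice to repress D14, was near the bottom of the signal range in WT and higher, though still dim, in OX. Its signals were 7.5, 1.3 and 0.5 in WT replicates 1, 2 and 3, and 35, 33.5 and 36.1 in OX replicates 1, 2 and 3. All OX arrays lay far above all WT arrays and close to each other. The change was 2.81 ± 0.49 (limma adjusted p = 0.009), and its size rests on the pseudocount, at 1.66 with a pseudocount of 12 and 3.54 with 1. It passed in all 14 alternatives in which it was tested, while the stricter filter removed it. MADS57 reached the filter only through its OX signals, so these passes are a description. On the same arrays D14, its reported target, was at -0.31 without passing. Whether the 2 values are related was not tested.

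**Figure D4:**
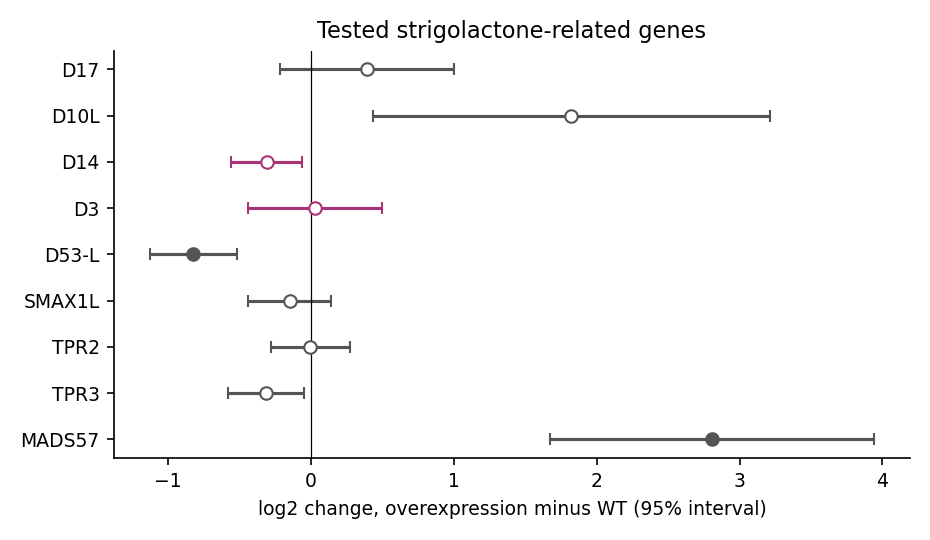
Log2 change (OX minus WT) with its 95% interval from limma for the 9 tested strigolactone-related genes, D14 and D3 in purple, n = 3 arrays per genotype. Filled points passed over all probe sets (D53-L at -0.82 and MADS57 at 2.81), and open points did not.

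Most markers of leaf and other cell types had lower signals in OX, as D14 did. All 7 leaf photosynthesis markers, among them rca (rubisco activase) and CAB2R (a light-harvesting protein), were bright on every array, with no brightest probe set below 1166, as the tissue label says. Their summed signal was 47996 to 55996 in WT and 38408 to 44434 in OX. None of the 7 passed with the brightest probe set per gene, though dimmer probe sets of FBPase (-0.44, limma adjusted p = 0.0219) and rca (-0.38, adjusted p = 0.0425) did. Other dimmer probe sets did not pass, and those of RBCS included changes of 0.09 and -0.004 (limma adjusted p = 0.676 and 0.987). The changes of the brightest probe sets ran from -0.39 to -0.29 with a median of -0.31, the same as the change of D14. Under quantile normalization that median was -0.04, with single markers from -0.38 to 0.002, and D14 was at -0.28. Giving all arrays the same distribution narrows differences among the very brightest probe sets by construction. These values therefore cannot separate D14 from the leaf markers.

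Vascular and secondary wall markers were examined because D14 is known to be expressed in vascular tissue of rice. Marker counts here are read against the 7.44% of all tested probe sets that fell. All 5 with a probe set were lower in OX, and 2 fell, the cellulose synthase gene CESA9 (-1.02 ± 0.23, limma adjusted p = 0.0235) and the homeobox gene HOX1 (-0.66 ± 0.11, limma adjusted p = 0.0063). The sucrose transporter gene SUT1 was at -0.49 ± 0.17 and did not pass. The brighter probe set of CESA4 did not pass (-1.02 ± 0.47), while its dimmer one did (-0.82 ± 0.22, limma adjusted p = 0.0435). The summed signal of these 5 genes was 976.1 to 1123 in WT and 561.5 to 694.1 in OX, with none at 0. Of 5 tested root markers 3 fell (Lsi1, YSL15 and IRT1), and the summed signal of all 7 was 645.5 to 651.4 in WT and 261.2 to 326 in OX, with Lsi2 at 0.6 to 1.6. Of 2 tested shoot meristem markers 1 fell (FON1), and the summed signal of 5 was 199.7 to 250.7 in WT and 90.3 to 170.7 in OX, with OSH1 at 1.5 to 19.3. The part of these cell types in the D14 difference was not tested.

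The genes most like D14 over the 6 arrays were ABCG39, an ABC transporter gene (Pearson r = 0.99), HAK11, of a potassium transporter family (r = 0.99), and CERK1, a receptor kinase gene for chitin perception (r = 0.97). They were the highest of 2068 named genes compared on log2(signal + 3), and a best match among so many on 6 arrays is a description. ABCG39 read 54.1, 43 and 36.4 in WT and 24.7, 32.6 and 24 in OX, a change of -0.65 ± 0.23. HAK11 was at -0.39 ± 0.13 and CERK1 at -0.31 ± 0.12, and none of the 3 passed (limma adjusted p from 0.0756 to 0.128). Having been picked for likeness to D14, all of them shared its order of arrays. They were highest on WT replicate 1, lowest in WT on replicate 3, and highest in OX on replicate 2. For D3 the closest were EX1, named for the EXECUTER1 protein of plastid singlet oxygen signalling (r = 0.96), AL1 (r = 0.94) and the jasmonate repressor gene JAZ9 (r = 0.87). Their changes were -0.003, 0.05 and 0.10, and none passed. WT replicate 3, the low D3 array, was the lowest array for EX1 and AL1, a likeness that their selection favours.

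**Figure D5:**
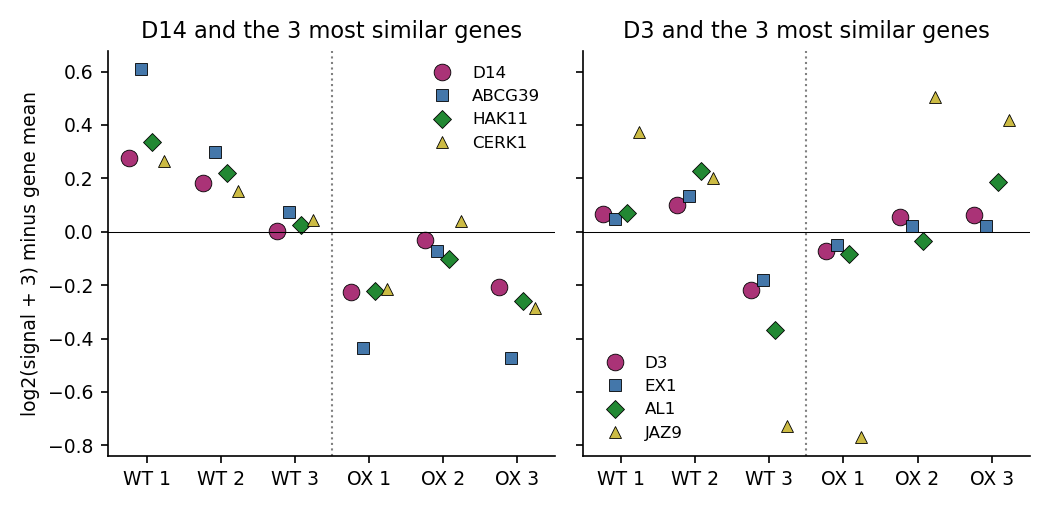
Log2(signal + 3) minus each gene's own mean on the 6 arrays, for D14 (left) and D3 (right) with the 3 named genes of highest Pearson r. Symbols of a single array are set side by side, and the dotted line parts WT from OX. D14 and its 3 matches are higher in WT, while D3 and its matches dip on WT replicate 3.

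The chromosomal neighbours of D14 in the RefSeq gene order were not lower in OX. LOC4331982 read 51 to 58.6 in WT and 45.6 to 78 in OX (0.19 ± 0.22, limma adjusted p = 0.566). LOC4331984, on the other side, read 60.5 to 72.7 in WT and 77.7 to 105.9 in OX (0.38 ± 0.17, limma adjusted p = 0.159), without overlap and in the opposite direction to D14. Higher OX signals without overlap were seen in 16.7% of all tested probe sets. Next to D3, LOC4340169 was at 0.12 ± 0.12 (limma adjusted p = 0.507). LOC4340167, by its brighter probe set, was at -0.23 ± 0.16 (limma adjusted p = 0.365).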

How the data were processed

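The authors produced the deposited probe set intensities, on a linear scale, using MAS5, per the submitters' processing notes (version not given in the sources used here). Biotin-labelled cRNA came from 5 µg of total RNA, per the labels' protocols. The 2% trimmed mean was 100 on all arrays, so no further scaling was applied. Detection calls were not used here, and dim probe sets cannot be told from background. Of 57381 probe sets, 187 controls were left out, and the 28456 whose mean signal reached 16.8, the median non-control value, were tested. limma 3.58.1 in R 4.3.3 was fitted to log2(signal + 3) with genotype alone (variance trend, two-sided, Benjamini-Hochberg over all tested probe sets), after a check on simulated data. Folds on this scale understate changes of low signals. For several probe sets of a gene, the brightest stood for it in counts. Alternatives changed the pseudocount, filter, normalization, variance model, weights, replicate block and arrays included.

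Genes were named through platform annotation and the RefSeq gene table (ASM3414082v1), used for names and neighbours alone. D53-L and SMAX1L were matched through spellings seen in the annotation, and 3 genes that share a name with a planned gene (OSK1, ASP1 and FC1) were left out. Genes named were D14 and D3, list genes that passed or had the smallest p by role, and the 3 named genes of highest correlation with each. Neighbours and markers were added for context. Members and lists were chosen with earlier results of these data known.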

Additional observations from a re-analysis of the deposited data

How the results depend on the processing

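D14 kept its direction in all 16 alternatives, from -0.38 to -0.21, and passed in 2 of the 15 with a test: with array weights (-0.33) and among the fits leaving out 1 array (-0.38 to -0.25) without OX replicate 2. Changes of the filter, the variance model and the replicate block could not move its estimate, which stayed at -0.31. D3 passed in none of 14, and leaving out 1 array gave -0.068 (without WT replicate 3) to 0.091. The stricter filter removed D3, D17, D10L and MADS57. It left 1 called gene in the pathway list in place of 2, and array weights gave 4. With array weights 7945 probe sets were called in place of 4578, and leaving out 1 array gave 2230 to 5533. TPR2 changed sign without 1 array in 4 of 6 fits, with values from -0.078 to 0.040. No pairing of WT and OX arrays by replicate number is stated. With each genotype's mean removed, signals of same-numbered arrays correlated at 0.0969, -0.0128 and -0.0561 for replicates 1, 2 and 3. Such values cannot settle whether the arrays were paired. With the replicate block D14 stayed at -0.31 (limma adjusted p = 0.106), D3 at 0.03 (0.938) and the list count at 2, and 3342 probe sets were called. The cause of these shifts was not tested. Signals near the pseudocount, as in D10L and MADS57, limit the size of their changes.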
